A study of Mus musculus with 8 samples.

Results

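Long autosomal islands of Brdt binding were examined, that is, continuous stretches of at least 10000 bases in which anti-Brdt ChIP reads exceeded control reads once these were scaled by library size. Islands were taken from 4 deposited lists on mm9, 1 for each anti-Brdt ChIP library, and counted as long by their span on chromosomes 1 to 19. The members were thus selected on measured values, the length and control count of each island, and values tied to these are descriptions. Islands that start between 3 and 24 Mb of chromosome 1 or between 3 and 9 Mb of chromosome 14, where long wild-type islands were crowded (154 and 144 in wild-type spermatocytes), were left out, as were islands with 200 or more control reads per kb. Of 426082 islands in the 4 lists, 339 met these limits. Wild-type spermatocytes gave 199, wild-type round spermatids 69, BD1del spermatocytes 50 and BD1del round spermatids 21.

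Brdt is a testis-specific protein of the BET family, which carries a pair of bromodomains that bind acetylated lysines of histones. The first bromodomain (BD1) binds acetylated histone H4, and Brdt takes part in the gene expression program of meiotic cells and, later, in the reorganisation of acetylated chromatin when spermatids elongate. Mice that lack BD1 produce a shortened Brdt protein, and the males are sterile. The libraries came from spermatocytes (meiotic) and round spermatids (post-meiotic) of adult mice, either wild type or with the BD1 deletion on Brdt (BD1del). The wild-type mice were C57BL/6, and cells of 10 animals were pooled before their chromatin was cut with MNase to about 200 bp. For BD1del mice the sources used here name neither the strain nor the number of animals nor how chromatin was cut. Ages beyond adult are not given there either. All fractions were enriched on a BSA gradient, and their purity was not given. With 1 library per combination of stage and genotype there was no replicate error, and no difference between groups has a test. The files hold no gene names and no annotation of mm9 was used, so regions are given by position and their genes are not named.

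All ChIP libraries were shallower than their controls, as ChIP libraries held 0.559 times the size of their control for spermatocytes and 0.264 times for round spermatids of wild type, against 0.177 and 0.184 for those of BD1del. Depth affects which folds can be called, so fold levels of different lists are set side by side with that limit. The wild-type lists were labelled as made from 1 tag of each read pair and the BD1del lists from both tags, so genotype and read set cannot be told apart. These differences stand behind every comparison below, and their part in the results was not tested. Main shares of long islands covered between stages or between genotypes are followed by a 95% binomial interval (exact Clopper-Pearson), for counting error alone. Shares under other limits have none.

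Long autosomal islands were most numerous in wild-type spermatocytes and least numerous in BD1del round spermatids. They covered 3.56 Mb and 1.15 Mb for wild-type spermatocytes and wild-type round spermatids, and 0.670 Mb and 0.301 Mb for the same BD1del stages. In the same order they were 0.751%, 0.107%, 0.0483% and 0.0112% of the autosomal islands that met the same limits of position and control density. Their part of the bases in those islands was 5.20%, 1.09%, 0.463% and 0.227%. Spermatocytes therefore had more of them than round spermatids in both genotypes, and wild type more than BD1del at both stages. The order of the genotypes rested on islands of low fold, the deposited ratio of ChIP reads to control reads scaled by library size. With a fold of at least 2, wild type kept 9 spermatocyte and 6 round spermatid islands while BD1del kept 19 and 14, so the BD1del lists then had more at both stages. Islands of 1000 to 9800 bases reached that fold in 26.7% and 72.8% of cases for the wild-type stages and in 91.6% and 96.3% for the BD1del stages, so more of the shorter BD1del islands reached it too.

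The limits removed unequal numbers from the lists. In all, 884 islands of wild-type spermatocytes were at least 10000 bases long, of which 341 lay on X and 41 on Y. A further 154 lay in the block on chromosome 1 and 144 in the block on chromosome 14. In BD1del spermatocytes 156 islands reached that length, with 56 on X, 20 on Y, and 2 and 5 in the autosomal blocks. The limit on control reads, which is in raw reads and so bears harder on deeper controls, took out 5 of 204 remaining islands in wild-type spermatocytes and 7 of 76 in wild-type round spermatids. It took out 23 of 73 for BD1del spermatocytes and 16 of 37 for BD1del round spermatids. The islands it removed had a median of 312 control reads per kb for BD1del spermatocytes and 292 for BD1del round spermatids, with median folds of 1.17 and 1.26.

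Most long islands were only a little over the length limit. The median length was 13000 bases for wild-type spermatocytes, 13400 for round spermatids of wild type, 12400 for BD1del spermatocytes and 12200 for round spermatids of BD1del. At least 20000 bases were reached by 41, 6, 4 and 2 islands in that order. The longest spanned 148.8 kb, 148.4 kb, 35.2 kb and 34.6 kb. At exactly 10000 bases stood 6 islands of wild-type spermatocytes with folds of 1.27 to 1.66, and at 9800 bases stood 16 with folds of 1.13 to 2.39. For the other lists the numbers just inside and just outside were 3 and 5, 4 and 2, and 1 and 0. The length limit therefore cut through a continuous range.

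Fold was lower in long islands than in shorter ones of the same list. The median fold of the long islands was 1.29 in wild-type spermatocytes (range 1.06 to 3.01), 1.38 for round spermatids of wild type (1.10 to 2.71), 1.64 for BD1del spermatocytes (1.12 to 3.12) and 2.51 for BD1del round spermatids (1.13 to 3.39). Autosomal islands of 1000 to 9800 bases had medians of 1.65, 2.48, 3.14 and 3.76. Control reads were denser in the long islands, at a median of 61.2 per kb against 38.9 for wild-type spermatocytes, 86.2 against 32.1 for round spermatids of wild type, 120 against 50 for BD1del spermatocytes and 77.6 against 42.5 for round spermatids of BD1del. ChIP reads were denser too, at 43.0 against 37.3, 32.8 against 22.5, 32.5 against 28.0 and 31.4 against 29.0 per kb. Long islands thus had more reads per base in both libraries, with the larger gap in the control. Length, control density and the call of an island come from the same reads, so these values describe the islands and were given no test. A stretch of 10000 bases at the median control density of its list would pass the largest deposited p of that list at a fold of 1.14, 1.16, 1.17 and 1.21 in that order, as far as the step against the control alone decides.

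**Figure D1:**
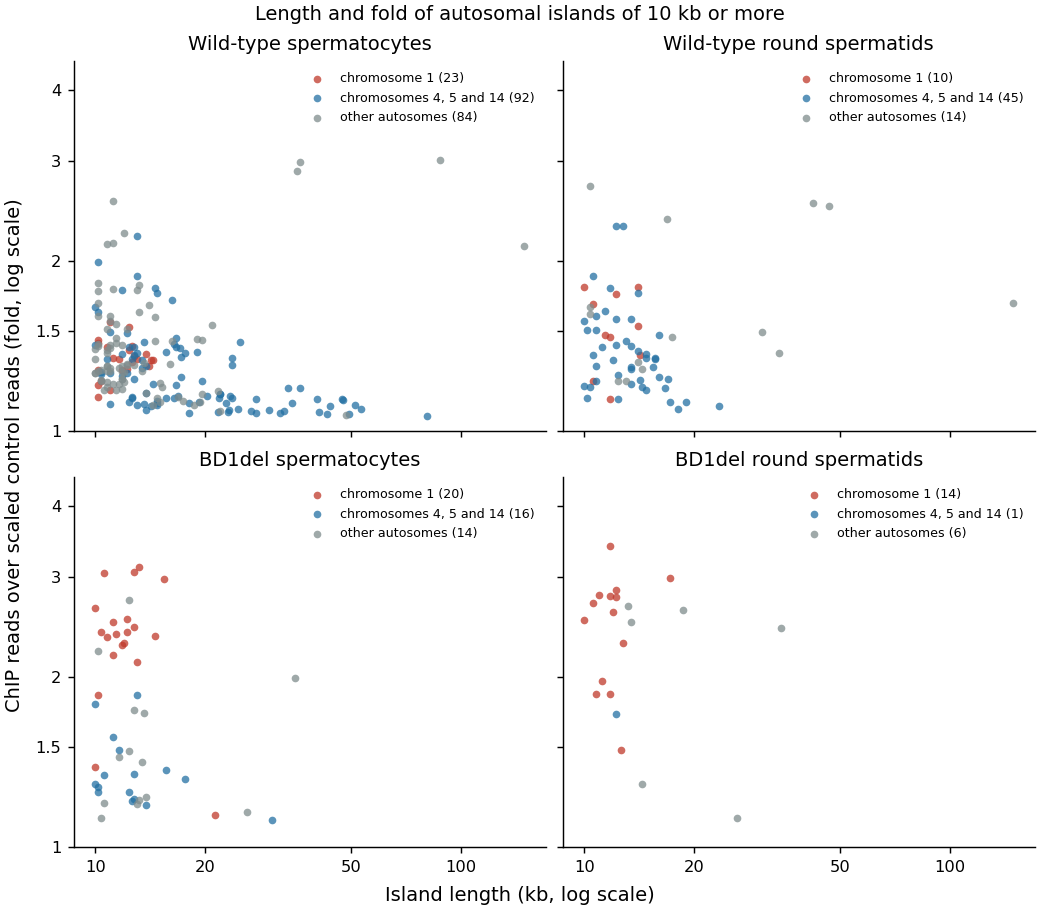
Length (kb, log scale) against deposited fold (log scale) for each long autosomal island, 1 panel per list, coloured by chromosome group with the number of islands in brackets. All but 9 of 199 and 6 of 69 wild-type points lie under a fold of 2, while the chromosome 1 islands of the BD1del lists lie mostly above 2.

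The long islands were gathered on a few chromosomes, and these differed between the lists. In wild-type spermatocytes 36 lay on chromosome 14, 30 on chromosome 4 and 26 on chromosome 5, so that these 3 chromosomes held 46.2% of the long islands but 16.4% of all autosomal islands under the same limits. In wild-type round spermatids they held 45 of 69, or 65.2%, against 17.1% of all autosomal islands. In BD1del spermatocytes they held 16 of 50, and in BD1del round spermatids 1 of 21. Chromosome 1 beyond 24 Mb held 23 and 10 long islands of wild type, which is 11.6% and 14.5% of them, near its 12.6% and 10.7% of all autosomal islands. In the BD1del lists it held 20 and 14, which is 40.0% and 66.7%, against 10.0% and 8.85%. Of islands of 5000 to 9800 bases it held 21.6% and 29.3% in wild type and 58.7% and 79.5% in BD1del. Its part was thus larger just under the length limit, and gathering there was not particular to the long islands. Chromosomes 10 and 19 held none in any list, and the round spermatid and BD1del lists held none on chromosomes 11, 12, 13, 15 and 18, where wild-type spermatocytes had 33.

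**Figure D2:**
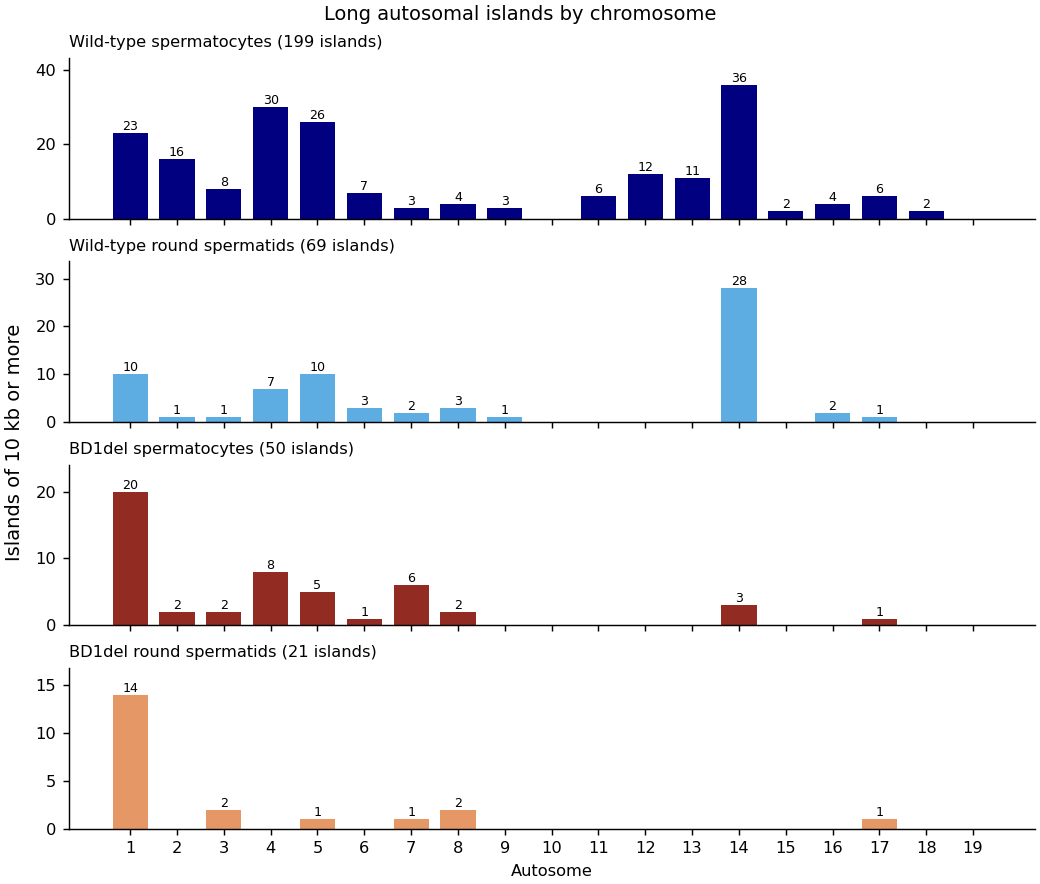
Number of long islands on each autosome, 1 panel per list, with the count over each bar; the vertical scales differ between panels and each starts at 0. The tallest bars are chromosome 14 in both wild-type lists (36 and 28) and chromosome 1 in both BD1del lists (20 and 14).

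Islands on chromosome 1 differed in fold between the genotypes. Their median fold was 1.34 in wild-type spermatocytes (range 1.15 to 1.56) and 1.51 in wild-type round spermatids (1.14 to 1.80). It was 2.39 in BD1del spermatocytes (1.14 to 3.12) and 2.65 in BD1del round spermatids (1.48 to 3.39). A fold of at least 2 was reached by none of the 23 and 10 wild-type islands there, and by 17 of 20 and 10 of 14 in the BD1del lists, a difference in the same direction as that of the shorter islands of all autosomes given above. On chromosomes 4, 5 and 14 wild type had median folds of 1.18 and 1.34, and BD1del spermatocytes 1.31. Median control density on chromosome 1 was similar across the lists, at 65.5, 69.6, 71.1 and 62.1 reads per kb, whereas on chromosomes 4, 5 and 14 wild type had 71.3 and 86.2, against 138 in BD1del spermatocytes.

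Stage was compared first within wild type. Of the 199 long islands of spermatocytes, 82 were covered to at least 50% of their bases by round spermatid islands of any length, or 41.2% (34.3 to 48.4%). Over all autosomal islands of that list under the same limits the share was 40.7%, so the long ones were close to the background. In the other direction the long islands stood apart from their list: 47 of 69 round spermatid islands, 68.1% (55.8 to 78.8%), were covered to at least 50% in spermatocytes, against 19.3% of all. Of these 69, 32 were covered to 90% or more and 18 not at all, and the matching shares of all autosomal islands were not counted. Round spermatid islands of 5000 to 9800 bases had nearly the same share, 69.5%, so the rise began below the length limit. Of the 166 spermatocyte islands met at all, 89 were met by 2 or more round spermatid islands, with a median of 2. Of the 51 round spermatid islands met, 4 were met by 2 or more spermatocyte islands, with a median of 1. These numbers were not taken for shorter islands. In overlapping pairs of long islands, 11 of 39 began at the same base and 3 of 39 ended at the same base.

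Stage was compared in BD1del cells in the same way, and there the long islands stood apart from their list in both directions. Of the 50 long islands of BD1del spermatocytes, 23 were covered to at least 50% in BD1del round spermatids, 46.0% (31.8 to 60.7%), against 9.38% of all autosomal islands of that list. Without chromosome 1 the number was 8 of 30, or 26.7%. Of the 21 long islands of BD1del round spermatids, 19 were covered to that extent in BD1del spermatocytes, 90.5% (69.6 to 98.8%), against 9.57%. With chromosome 1 left out it was 7 of 7. The shares of all autosomal islands were not recounted without chromosome 1. Again the share was already high just under the length limit, at 61.0% and 86.7% for islands of 5000 to 9800 bases. Among 9 overlapping pairs of long islands of the BD1del stages, 7 had both ends within 1000 bases of each other.

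Genotype was then compared within each stage. In spermatocytes 45 of 199 wild-type long islands, 22.6% (17.0 to 29.1%), were covered to at least 50% in BD1del, against 18.6% of all. Chromosome 1 gave 22 of those 45, from 23 islands there, and without it the share fell to 13.1%. No share of all autosomal islands was recounted without chromosome 1. In wild-type round spermatids 22 of the 50 BD1del spermatocyte islands were also covered to that extent, against 7.72% of all. In the other direction 22 of 50 BD1del long islands, 44.0% (30.0 to 58.7%), were covered to at least 50% in wild type, against 6.12% of all. Without chromosome 1 it was 7 of 30, or 23.3%. No base was covered in 24 of the 50, and the share of all autosomal islands with no base covered was not counted. In round spermatids 26 of 69 wild-type long islands, 37.7% (26.3 to 50.2%), were covered to at least 50% in BD1del, against 12.7% of all. Of the 21 BD1del long islands, 13 were, 61.9% (38.4 to 81.9%), against 7.22%. Without chromosome 1 the numbers in round spermatids were 16 of 59, or 27.1%, for wild type and 5 of 7 for BD1del. Across both stage and genotype, 33 of 199 wild-type spermatocyte islands were covered in BD1del round spermatids, against 19.2% of all, and 29 of 69 wild-type round spermatid islands in BD1del spermatocytes, against 11.9%. In the reverse direction 11 of the 21 were covered to that extent in wild-type spermatocytes, against 4.94% of all. Islands of 5000 to 9800 bases had shares in the other genotype of the same stage of 28.2% and 35.5% for wild-type spermatocytes and round spermatids. For BD1del these were 60.2% and 75.6%. High cover of BD1del islands was thus not particular to the long ones, whose shares of 44.0% and 61.9% were lower.

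Coverage of the BD1del spermatocyte islands moved with control density, which itself went with chromosome. Of the 20 long islands of BD1del spermatocytes with under 100 control reads per kb, 15 were covered to at least 50% in wild-type spermatocytes, against 7 of 30 with more. Cover in wild-type round spermatids gave the same counts, and cover in BD1del round spermatids 14 of 20 and 9 of 30. The first 20 had a median fold of 2.39 and the other 30 a median of 1.31. In BD1del round spermatids 10 of 12 with under 100 control reads per kb and 1 of 9 with more were covered to that extent in wild-type spermatocytes. In the other lists the split was smaller for these 21 islands, at 8 of 12 and 5 of 9 in wild-type round spermatids and 11 of 12 and 8 of 9 in BD1del spermatocytes. Cover of wild-type islands in the BD1del list of the same stage went the other way, at 31 of 172 spermatocyte islands under 100 and 14 of 27 above, and at 10 of 43 and 16 of 26 round spermatid islands. Round spermatid islands of wild type were covered in wild-type spermatocytes at 30 of 43 and 17 of 26. Long islands of BD1del spermatocytes had a median of 71.1 control reads per kb on chromosome 1. It was 138 on chromosomes 4, 5 and 14 and 162 on other autosomes. On chromosome 1, 15 of 20 were covered in wild-type spermatocytes, against 7 of 30 elsewhere, the same counts as by control density. Shares over all autosomal islands were not split by control density. The parts of control density and of chromosome in these shares were not separated or tested.

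**Figure D3:**
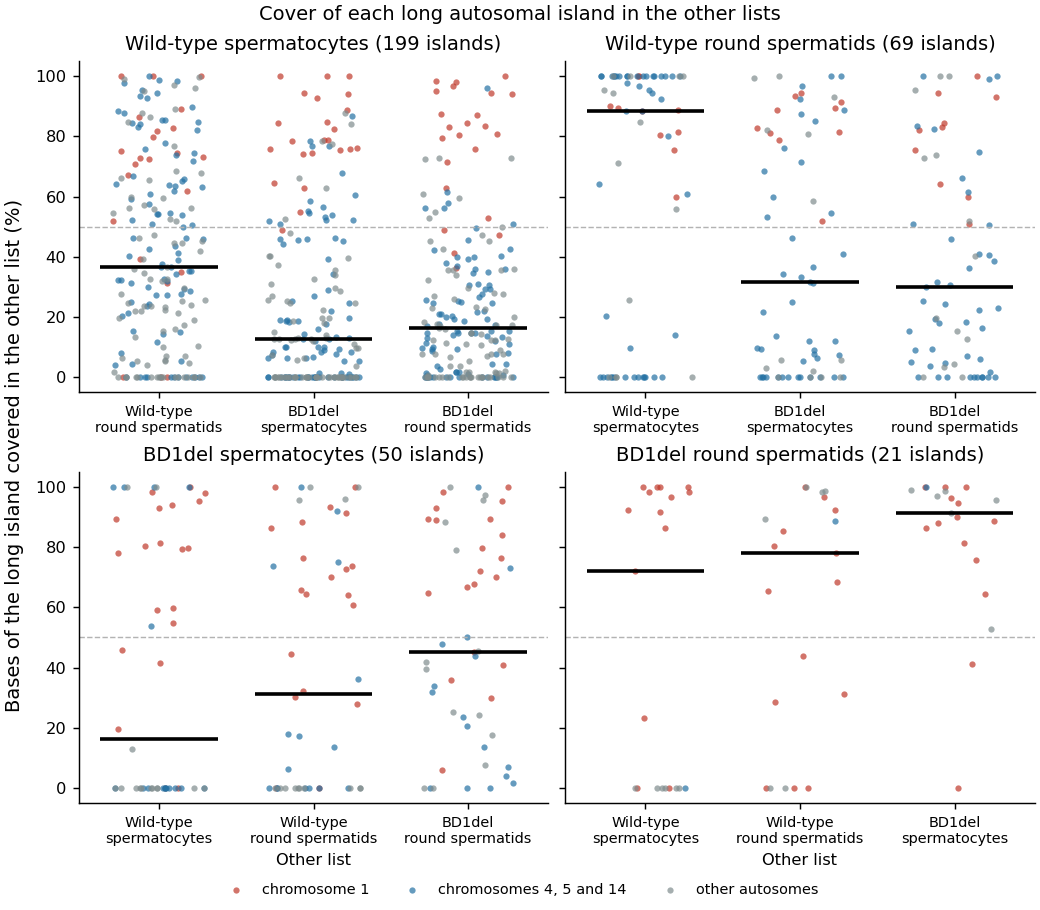
Percentage of each long island's bases covered by islands of each other list, 1 panel per list; each point is an island, coloured by chromosome group, the black bar is the median and the dashed line marks 50%. Medians range from 12.7% (wild-type spermatocytes in BD1del spermatocytes) to 91.4% (BD1del round spermatids in BD1del spermatocytes).

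**Figure D4:**
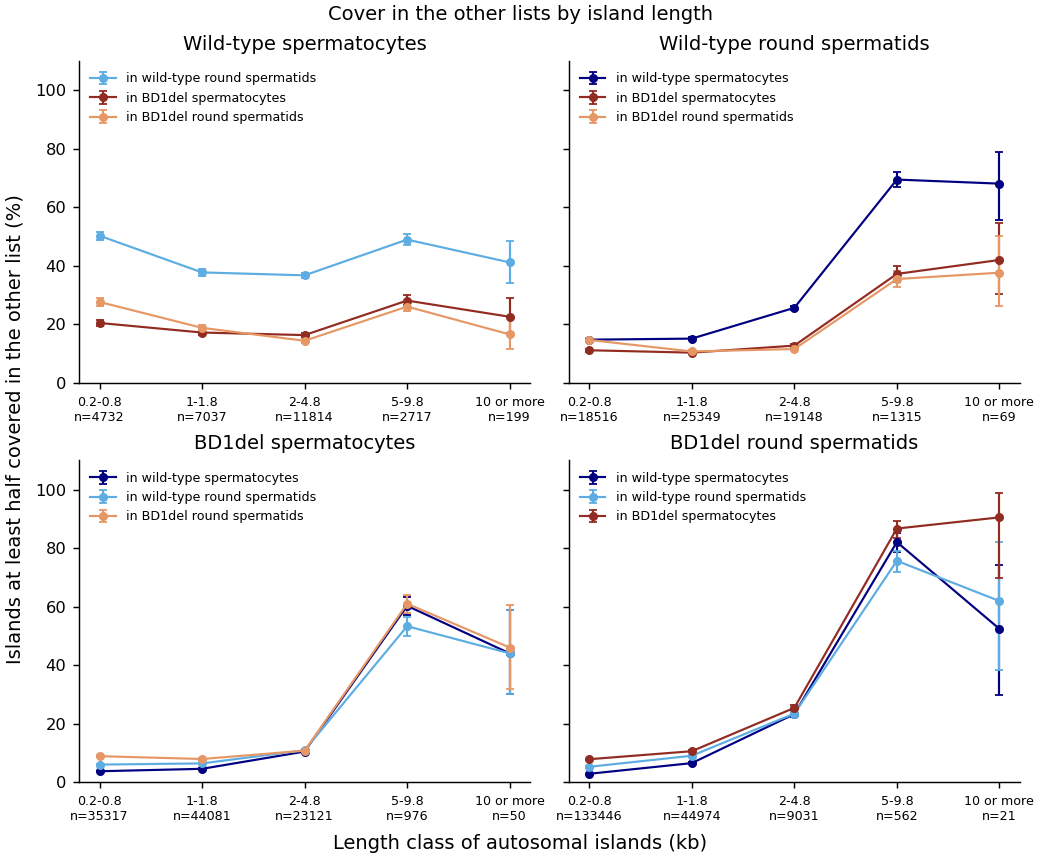
Share of autosomal islands at least 50% covered in each other list, by length class (kb) with the number of islands n, 1 panel per list; error bars are exact 95% binomial intervals. The share stays between 14.4 and 50.3% in every class of wild-type spermatocytes and rises from the class of 2 to 4.8 kb to that of 5 to 9.8 kb in all 4 lists.

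Where a long island was covered to at least 50% in the other genotype, fold was mostly higher in BD1del. The fold in the other list was taken over its called islands alone, while the own fold was that of the whole long island. The 2 folds are thus unlike measures, and a count from 1 list can lean toward the other list. Of the 45 such wild-type spermatocyte islands, 44 had a higher fold in the BD1del islands that met them, with medians of 1.34 and 2.13. All autosomal islands covered in this way gave 88.4%. Of the 26 wild-type round spermatid islands, 25 had a higher fold in BD1del, with medians of 1.37 and 2.32, against 78.1% of all. Between stages of wild type, 63 of 82 spermatocyte islands had a higher fold in round spermatids, with medians of 1.35 and 1.57, against 74.4%, which is near the background. In BD1del, 17 of 23 spermatocyte islands had a higher fold in round spermatids, with medians of 2.35 and 2.49, against 52.8% of all. Taken from the other list, the direction was the same: 2 of 22 BD1del spermatocyte islands and 0 of 13 BD1del round spermatid islands had a higher fold in wild type, against 5.19% and 8.67% of all. Between stages, 12 of 47 wild-type and 3 of 19 BD1del round spermatid islands had a higher fold in spermatocytes, against 17.8% and 21% of all.

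After joining the long islands of all lists that share a base, 268 loci of 4.55 Mb in all remained. A long island was found in a single list at 212 loci, in 2 lists at 45, in 3 lists at 10 and in all 4 lists at 1. Wild-type spermatocytes alone accounted for 150. Islands of some length lay in 118 of those 150 for round spermatids of wild type, 86 for BD1del spermatocytes and 114 for the BD1del round spermatid list. Median cover over the 150 was 29.8%, 8.77% and 14.4%. The matching values over all autosomal islands were not counted. Coverage of at least 50% in all 4 lists was found at 34 loci, of which 26 were on chromosome 1, where 46 of the 268 loci lay.

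Those 26 loci of chromosome 1 had a higher fold in BD1del than in wild type. The islands in them had a median fold of 1.34 for wild-type spermatocytes, 1.64 for round spermatids of wild type, 2.48 for BD1del spermatocytes and 2.80 for round spermatids of BD1del. The fold was higher in BD1del than in wild type at 26 of 26 in both stages. This was not particular to chromosome 1: at the other 8 loci covered in all lists it was higher at 8 of 8 in spermatocytes and 7 of 8 in round spermatids, and over all covered autosomal islands of wild type the shares were 88.4% and 78.1%. The lowest BD1del spermatocyte value, 1.86, lay above the highest of wild-type spermatocytes, 1.83, while in round spermatids the lowest BD1del value of 1.93 lay above the highest wild-type value of 1.92. Round spermatids exceeded spermatocytes at 23 of 26 loci in wild type and at 20 of 26 in BD1del, beside 74.4% and 52.8% of all covered autosomal spermatocyte islands. At the other 8 loci they did so at 2 of 8 in each genotype. The locus with a long island in every list was chromosome 1, 168463201 to 168477200. It spanned 12400 bases in wild-type spermatocytes (649 ChIP and 759 control reads, fold 1.53), 14000 in round spermatids of wild type (374 and 924, fold 1.53), 13200 for BD1del spermatocytes (526 and 950, fold 3.12) and 11800 for BD1del round spermatids (488 and 783, fold 3.39). Its fold was the same in both wild-type lists, and it was the highest among the long islands of each BD1del list. Control density there was 61.2 to 72.0 reads per kb.

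Other long islands of high fold in the BD1del lists also lay on chromosome 1. In BD1del spermatocytes these were 111146201 to 111159000 at 3.06 and 98872401 to 98883000 at 3.05, covered to 81.2% and 79.2% in wild-type spermatocytes. In BD1del round spermatids they were 152132801 to 152150000, of 17.2 kb at 2.98, and 176325001 to 176337200 at 2.84. Both were met in every other list, at 72.1% and 100% in wild-type spermatocytes, 77.9% and 80.3% in round spermatids of wild type, and 75.6% and 88.5% in BD1del spermatocytes.

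In wild type 2 long stretches were filled that were almost empty in BD1del. A stretch of chromosome 6, 114439601 to 114588400, was filled by a single island in each wild-type list, with 105 ChIP reads per kb in spermatocytes and 56.2 in round spermatids. Control reads stood at 88.5 and 127 per kb in the same order, and the folds were 2.13 and 1.68. In BD1del spermatocytes 2 islands covered 5.78% of it and in BD1del round spermatids 9 islands covered 12.6%. A locus of chromosome 8, 126061401 to 126151200, was filled by 1 island in wild-type spermatocytes at a fold of 3.01, the highest of any long island there, and by 2 of 46.8 kb and 42.2 kb in wild-type round spermatids, at 2.49 and 2.52. In both BD1del lists 3.79% of it was covered, by 2 and 3 islands whose summed folds were 2.39 and 3.01. Both stretches had the same start base in the wild-type stages. These 2 stretches weigh on shares counted by bases: BD1del spermatocyte islands covered 35.3% of the bases of wild-type round spermatid long islands, and 43.2% without them.

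Wild type and BD1del shared the extent, but not the continuity, of a pair of neighbouring loci on chromosome 6. The first, 47601401 to 47637000, was 1 island in wild-type spermatocytes with 10951 ChIP and 6797 control reads and a fold of 2.88. The same 35.6 kb held 2 islands of wild-type round spermatids, 5 of BD1del spermatocytes and 8 of BD1del round spermatids, which covered 97.2%, 84.3% and 72.5% at summed folds of 2.21, 3.16 and 3.10. The second, 47687001 to 47723200, had 1, 3, 7 and 8 islands and summed folds of 2.99, 2.20, 3.62 and 3.60. Control reads were dense, at 191 and 175 per kb in wild-type spermatocytes. When islands within 1000 bases of each other were joined, an alternative chosen after the data were seen, the numbers of long islands rose to 285, 113, 112 and 57. The BD1del lists gained most relative to their number, so that BD1del spermatocytes and wild-type round spermatids came to differ by 1 island.

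**Figure D5:**
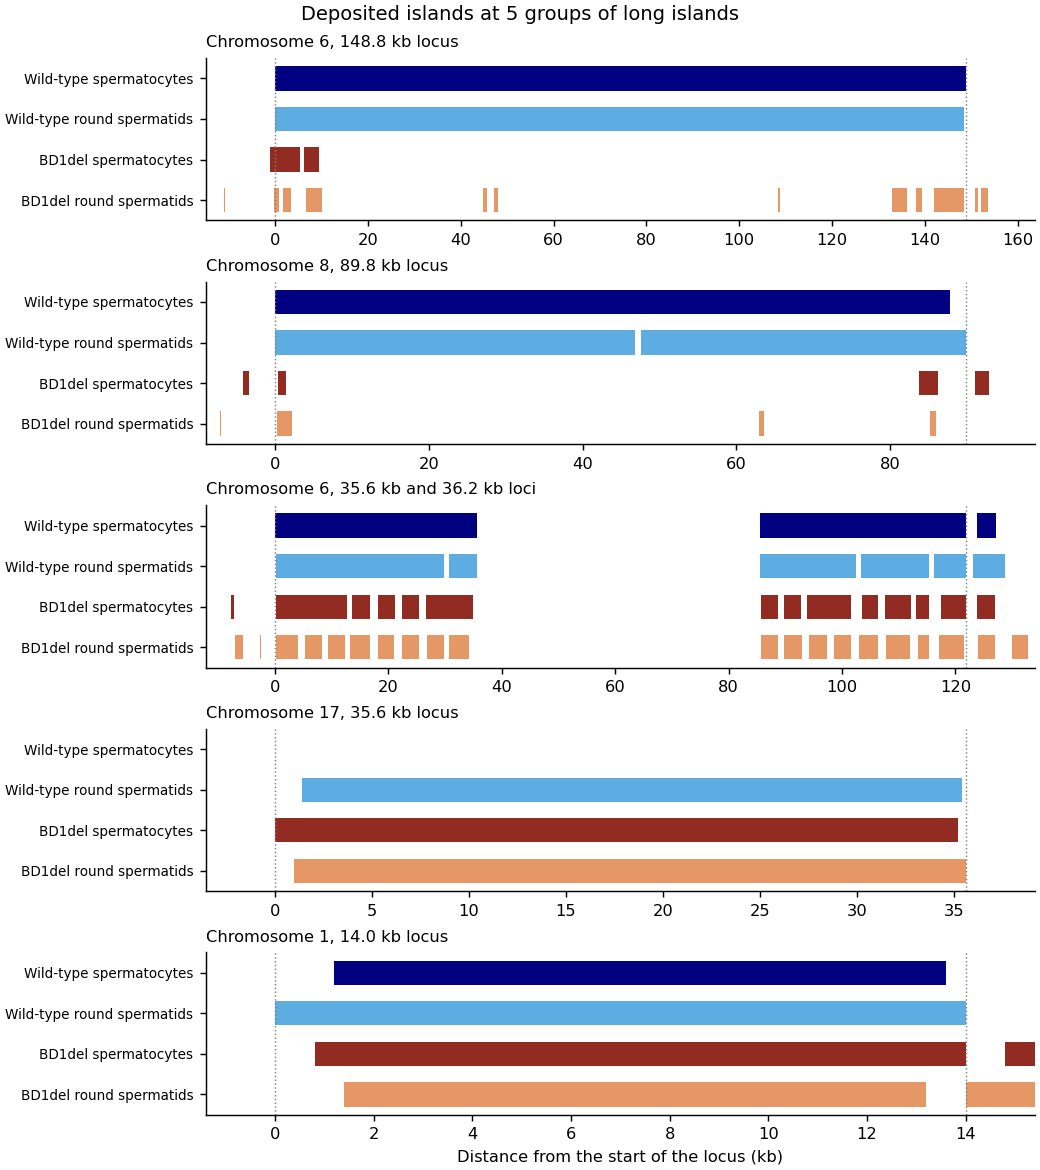
Deposited islands (bars) of the 4 lists at 5 places, against the distance from the start of the locus (kb); dotted lines mark the first and last base of the long islands. The upper 2 maps show wild-type stretches of 148.8 and 89.8 kb nearly empty in BD1del, the third the same extent in more pieces, the fourth a locus without an island in wild-type spermatocytes, and the last the locus with a long island in all lists.

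Several loci were covered in every list but that of wild-type spermatocytes. Of the 268 loci, 6 were covered to at least 80% in 3 lists and to 0% in 1, and at all 6 the list without cover was that of wild-type spermatocytes. That list had the fewest islands, 36615 against 74968, 112671 and 201828 in the others. The share of all islands with this pattern was not counted, and the part of list size was not tested. The longest was chromosome 17, 3003801 to 3039400, at the start of the sequenced chromosome. It held 1 island in each other list, with folds of 1.38 for wild-type round spermatids, 1.99 for BD1del spermatocytes and 2.44 for the BD1del round spermatid list, from 5467, 5876 and 4165 control reads. A pair of loci at the start of chromosome 3, 3000001 to 3018600 and 3019801 to 3033600, followed the same order: summed folds were 1.34 and 1.22, then 1.78 and 1.72, then 2.62 and 2.66. The remaining 3 were chromosome 7, 71218201 to 71235600, and a pair on chromosome 5, 14933401 to 14945600 and 15157601 to 15170000. On chromosome 5 the islands that met the loci in BD1del spermatocytes held 11430 and 8475 control reads at a fold of 1.17 each. A region without an island has no read counts in the lists, so the level in wild-type spermatocytes there is not known.

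Loci limited to 1 genotype or 1 stage were few. Cover of at least 80% in both wild-type lists and under 10% in both BD1del lists was found at 3 loci: the stretch on chromosome 8, and on chromosome 14 19874201 to 19891800 and 43012001 to 43023600. The reverse was found at 2 loci. Of these, chromosome 8, 19857201 to 19886400, had islands of fold 1.17 and 1.13 in BD1del spermatocytes and round spermatids, with 4859 and 3671 control reads. The islands that met chromosome 1, 85219201 to 85230000, had folds of 1.13 and 1.87, with 8502 and 782 control reads. No locus had that pattern for spermatocytes of both genotypes, and 1 had it for round spermatids, chromosome 4, 146768801 to 146781000, with folds of 1.42 in wild type and 1.23 in BD1del. Among the longest wild-type round spermatid islands without a spermatocyte island was also chromosome 7, 71610601 to 71641200, of 30.6 kb at 1.49, which BD1del lists covered to 0% and 19.6%.

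Apart from the stretches at 114 Mb of chromosome 6 and 126 Mb of chromosome 8, the longest islands of wild-type spermatocytes had low folds. Chromosome 4, 145246401 to 145327000, spanned 80.6 kb at a fold of 1.06 from 5253 ChIP and 8829 control reads, and the other 3 lists covered 15.1%, 13.2% and 20.1% of it. Chromosome 14, 43060001 to 43113200 and 45299801 to 45351000, spanned 53.2 and 51.2 kb at 1.09 and 1.11. The longest spermatocyte islands with no round spermatid cover lay on chromosome 5: 26407201 to 26451000 of 43.8 kb at 1.11, 14970401 to 14998000 of 27.6 kb at 1.08, and 26373601 to 26396600 of 23.0 kb at 1.08. All 3 had over 100 control reads per kb, and BD1del round spermatids covered 56.2%, 39.1% and 49.6% of them. In BD1del spermatocytes the longest island without cover in any other list was chromosome 14, 20329001 to 20359400, of 30.4 kb at 1.12, from 1023 ChIP and 5169 control reads.

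Neighbouring loci formed clusters in wild type. With loci closer than 1 Mb counted together, there were 115 clusters, of which 75 were a single locus and 6 held 8 or more. Those 6 held 103 of the 268 loci and 82, 34, 12 and 0 of the long islands of wild-type spermatocytes, wild-type round spermatids, BD1del spermatocytes and BD1del round spermatids. The largest ran from 42127601 to 45351000 of chromosome 14, with 39 loci in 3.22 Mb. Wild-type spermatocytes had 30 long islands there at a median fold of 1.12 (1.07 to 1.25), and wild-type round spermatids had 23 at 1.33 (1.11 to 1.59). BD1del spermatocytes had 1. Islands of any length covered 28.7% and 29.0% of this span in wild type and 10.2% and 10.3% in BD1del. The stages of wild type thus had a similar cover of the span. Of the locus bases, wild-type spermatocytes covered 85.4% and wild-type round spermatids 58.0%. Loci are made of the long islands themselves, and spermatocytes gave more of them. The gap in locus cover therefore partly follows from the length rule and is not read as a stage difference.

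The next cluster, chromosome 4 from 144979801 to 147187600, had another pattern. Its 24 loci held 16, 4, 8 and 0 long islands in the same order, and its span was covered to 22.2% in spermatocytes of both genotypes, and to 13.3% and 14% in round spermatids. Median folds were 1.18 in wild-type and 1.31 in BD1del spermatocytes, at 76.6 and 145 control reads per kb. Of the locus bases, islands covered 81.0% in wild-type and 40.5% in BD1del spermatocytes. The loci are joined long islands, of which wild-type spermatocytes gave more, so locus cover partly follows from the length rule. Bases common to both lists were not counted in this cluster. On chromosome 5 from 10233201 to 11931400, 13 loci held 12 and 6 wild-type long islands at median folds of 1.39 and 1.58, and 1 of BD1del spermatocytes. The wild-type lists covered 18.1% and 20.3% of that span and the BD1del lists 8.40% and 7.57%.

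The other 3 clusters were mainly of wild-type spermatocytes. Chromosome 13 from 65687001 to 66828200 had 9 long islands, all of that list, at a median fold of 1.31 and 45.7 control reads per kb. Its span was covered to 26.3% there and to 11.5%, 7.66% and 9.32% in the others. Chromosome 4 from 41755601 to 42755000 likewise had 8 of that list and none of the others, at 1.41 and 51.3 control reads per kb, with 32.4%, 15.5%, 1.30% and 4.40% of the span covered. It was the cluster with least BD1del cover, and it held 2 of the 3 longest wild-type spermatocyte islands without BD1del spermatocyte cover, 42072001 to 42096800 at 1.44 and 42714201 to 42737800 at 1.35. Chromosome 2 from 175937601 to 177768800 had 7, 1, 2 and 0 long islands, and 15.5%, 14.8%, 9.90% and 7.59% of its span was covered. Spans and the limit of 8 loci were chosen after the data were seen.

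Some wild-type long islands had a high fold and few control reads. In wild-type spermatocytes chromosome 11, 97925601 to 97937600, had 373 ChIP and 298 control reads at 2.24. On chromosome 17, 7164201 to 7175400 and 8349001 to 8359800 had folds of 2.15 and 2.14 from 340 and 322 control reads. All 3 had between 24.8 and 30.4 control reads per kb and no BD1del spermatocyte island, and were covered to 36.7%, 44.6% and 51.9% in wild-type round spermatids and to 23.3%, 35.7% and 3.70% in BD1del round spermatids. The highest fold among round spermatid long islands of wild type, 2.71, belonged to chromosome 6, 58476201 to 58486600, from 285 ChIP and 398 control reads, which spermatocytes covered to 55.8% in wild type and 0% in BD1del, and BD1del round spermatids to 40.4%. These islands of chromosomes 11 and 17 were named after their values were seen.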

How the data were processed

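Brdt ChIP-seq of 4 libraries was analysed from the deposited lists of SICER islands on mm9, per the submitters' processing notes. List labels give a window of 200 and a gap of 600 bases. For the SICER version, aligner, duplicates and choice of input per ChIP library, the value is not given in the sources used here. The 4 input libraries were not analysed on their own, and control reads are the control counts deposited in each list. ChIP and control read counts per island were deposited by the authors without normalization, the fold is the deposited ratio of ChIP to scaled control reads, and the deposited p-value and FDR compare both.

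Length was end minus start plus 1, and positions are 1-based. A long island counted as covered when islands of the other list, of any length, held at least 50% of its bases. Summed folds divide ChIP reads of all islands meeting a region by their control reads times the library ratio. Python 3.11.15, pandas 2.3.3 and scipy 1.17.1 were used, and the coverage count was tested on simulated islands.

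The long islands, limits and alternatives were chosen with earlier results of these data known. Named islands were the 5 longest and the 3 of highest fold (at least 10 control reads) per list, loci with a long island in all lists, and the 3 longest per comparison without cover. Loci counted by a pattern of cover were named after their values were seen. Alternatives were other limits of length, control density, FDR, fold and cover, and the blocks kept. The limits of FDR and fold were set on the covering list as well. Added later were leaving out chromosomes, joining islands, and limiting control reads in the other list.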

Additional observations from a re-analysis of the deposited data

How the results depend on the processing

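No paired analysis was possible because each stage and genotype had 1 library and the labels carry no replicate numbers. The order below is wild-type spermatocytes, wild-type round spermatids, BD1del spermatocytes, BD1del round spermatids. Numbers of long islands became 41, 6, 4 and 2 from 20000 bases, 43, 20 and 12 in the last 3 lists under 100 control reads per kb, 37 in the last list without that limit, 496 and 187 in wild type with both blocks kept, 83, 32 and 30 in the first 3 lists at an FDR of at most 1e-10, and 9, 6 and 19 in the first 3 at a fold of at least 2. Joined within 1000 bases, the last 3 lists had 113, 112 and 57.

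Cover of wild-type spermatocyte islands in wild-type round spermatids was 56.1% with the blocks kept, 27.7% at the FDR limit and 83.4% counting any shared base. The reverse was 86.1% with the blocks kept, 46.9% at the FDR limit, 50% at a fold of 2 (3 of 6) and 79.2% without chromosomes 4, 5 and 14. BD1del spermatocyte islands were covered in BD1del round spermatids to 70% under 100 control reads per kb, 73.7% at a fold of 2, 90% for any base and 26.7% without chromosome 1. The reverse was 100% from 20000 bases (2 of 2) and 100% without chromosome 1 (7 of 7).

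Wild-type spermatocyte islands were covered in BD1del spermatocytes to 12.3% with the blocks, 44.4% at a fold of 2 (4 of 9), 65.8% for any base and 13.1% without chromosome 1. The reverse was 0% from 20000 bases (0 of 4) and 75% under 100 control reads per kb (15 of 20). It was 23.3% at the FDR limit (7 of 30), 5.26% at a fold of 2 (1 of 19) and 23.3% without chromosome 1 (7 of 30). Wild-type round spermatid islands were covered in BD1del round spermatids to 16.7% from 20000 bases (1 of 6), 23.3% under 100 control reads per kb and 18.2% with the blocks. Their cover there was 16.7% at a fold of 2 (1 of 6), 82.6% for any base and 66.7% without chromosomes 4, 5 and 14. The reverse was 26.3% at the FDR limit (5 of 19) and 0% at a fold of 2 (0 of 14). Every share at the FDR limit or at a fold of 2 counts only covering islands that passed the same limit. Weaker islands of the covering list were dropped first, so a low share there does not show that islands were absent. Without the long stretches of chromosomes 6 and 8, the bases of wild-type round spermatid islands were covered to 60.1%, 43.2% and 41.2% by the other lists. Leaving out chromosomes or stretches, joining, and limiting control reads in the other list were chosen after seeing the data. The cause of these shifts was not tested. Without replicates, and with control counts above ChIP counts, differences between lists cannot be told apart from differences between libraries.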
